A study of Mus musculus with 6 samples.

Results

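The genes described here are 10 genes of the epithelial-mesenchymal transition (EMT), namely *Cdh1*, *Cdh2*, *Cdh11*, *Snai1*, *Snai2*, *Zeb1*, *Zeb2*, *Epcam*, *Vim* and *Fn1*. They were taken by gene symbol from a table of 15266 genes, and all 10 were found there. The table holds mRNA-seq of embryoid bodies (EBs), which are aggregates of mouse embryonic stem cells (mESCs) that differentiate in suspension and pass through a gastrulation-like programme. The 2 gene-edited lines, both made in W9.5 mESCs with CRISPR-Cas9, were grown for 4 days (D4) in medium with serum and without LIF, and 3 replicates of each were sequenced. The EVX1-Δfs line, clone 14, has a small frameshift deletion on each allele of *Evx1*, in the exon that encodes the homeodomain of this transcription factor, and leaves the antisense lncRNA gene *Evx1as* in place. The Del#3 line has a larger deletion that removes the start of *Evx1* together with the promoters of *Evx1as*. Both lines therefore lack functional EVX1, and the comparison between them asks what loss of *Evx1as* adds. Wild-type EBs were not analysed here. EVX1-Δfs is 1 clone and the libraries labelled Del#3 come from 1 line, so that the difference between the deletions and the difference between clones cannot be told apart. The replicates are differentiations set up on 3 different days, each day with both lines side by side. Libraries with the same replicate number were taken to share a day, which the sample labels do not state.

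The values are normalized counts, that is, the reads on a gene divided by a scaling factor of its library. Libraries had between 9024579 and 15699124 reads on the listed genes, and the 10 EMT genes together took 0.197% to 0.302% of them. The line labels were checked on the deleted genes. *Evx1* had 2582 to 4023 reads in EVX1-Δfs and 28 to 48 in Del#3, and *Evx1as*, listed as 5730457N03Rik, had 571 to 879 and 21 to 30. Markers of the pluripotent epiblast and of the primitive streak and mesoderm were present in all 6 libraries, with summed normalized counts of 7013 to 11376 over 5 epiblast genes and 6049 to 9104 over 6 streak genes. The neurectoderm genes *Sox1* and *Pax6* together had 3.98 to 15.0. Fold changes are given as Del#3 against EVX1-Δfs on log2(normalized count + 1), where the change of a gene with few reads depends on the constant added. They were tested with limma over the 12891 genes that passed a filter on low counts, and p-values were adjusted over all of these. EBs are mixtures of cells, so fewer cells of a type and less RNA per cell cannot be told apart in any value below.

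In an epithelium, cells are held together by adherens junctions, which E-cadherin (CDH1) builds by binding to itself across neighbouring cells. During EMT, transcription factors of the SNAI and ZEB families repress *Cdh1*, junctions are taken down, and cells gain mesenchymal proteins such as N-cadherin, vimentin and fibronectin. In the mouse embryo, epiblast cells go through EMT as they enter the primitive streak and become mesoderm, and SNAI1 is known to be needed for the loss of E-cadherin there.

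SNAI and ZEB proteins bind DNA at E-boxes that read CACCTG on one strand and CAGGTG on the other. The promoters of *Snai1* and *Epcam* are shown because they are the 2 among the genes with a RefSeq promoter entry, 4 of the 10, in which this motif was found. The stretch is the 250 bases before the annotated start, read 5′ to 3′ on the plus strand of NCBIM37 (the build also called mm9), at chr2:167363445-167363694 for *Snai1* and at chr17:88035069-88035318 for *Epcam*, with each E-box in capitals.
Snai1: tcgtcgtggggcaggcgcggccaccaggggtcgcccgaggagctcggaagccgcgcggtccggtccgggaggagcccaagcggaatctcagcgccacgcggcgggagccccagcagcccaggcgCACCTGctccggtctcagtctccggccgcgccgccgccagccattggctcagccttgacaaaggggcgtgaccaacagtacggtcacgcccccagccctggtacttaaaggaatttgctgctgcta
Epcam: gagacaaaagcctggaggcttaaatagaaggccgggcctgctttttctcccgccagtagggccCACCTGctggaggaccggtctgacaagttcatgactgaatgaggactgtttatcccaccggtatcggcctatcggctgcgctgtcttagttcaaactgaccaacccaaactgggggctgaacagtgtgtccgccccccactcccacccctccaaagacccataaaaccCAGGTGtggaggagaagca
The E-box of *Snai1* begins 126 bases before the start, and those of *Epcam* begin 187 and 19 bases before it. Searched on both strands, the motif was found in 17.2% of the 32851 RefSeq promoter windows of this length. Such a match describes the sequence and is no measured binding site. The other genes with an entry were *Vim* and *Zeb2*, where these letters were not found.

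None of the 10 EMT genes passed the test between the lines. The levels of *Cdh1*, *Cdh2*, *Snai1*, *Epcam* and *Vim* covered similar ranges in both lines, while *Zeb1*, *Zeb2* and *Snai2*, the least abundant genes, had the highest fold changes and wide intervals. All 10 passed the filter and were tested, and none had an adjusted p under 0.05 by limma, where 0.0155% of all genes tested did (2 genes, *Evx1* and *Evx1as*). The same count of 0 was given by DESeq2 and by edgeR on the recovered reads. At an unadjusted p under 0.05, limma gave 0 of the 10 genes, edgeR 0 and DESeq2 1 (*Zeb2*), against 1.03% of all genes by limma and 1.33% by DESeq2. The share of all genes by edgeR was not computed. None of the 10 had groups that did not overlap, which 3.51% of all genes tested had. Fold changes were above 0 for 7 genes and below 0 for 3, with a median of 0.13, and the median over all genes tested was 0.0022.

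**Figure D1:**
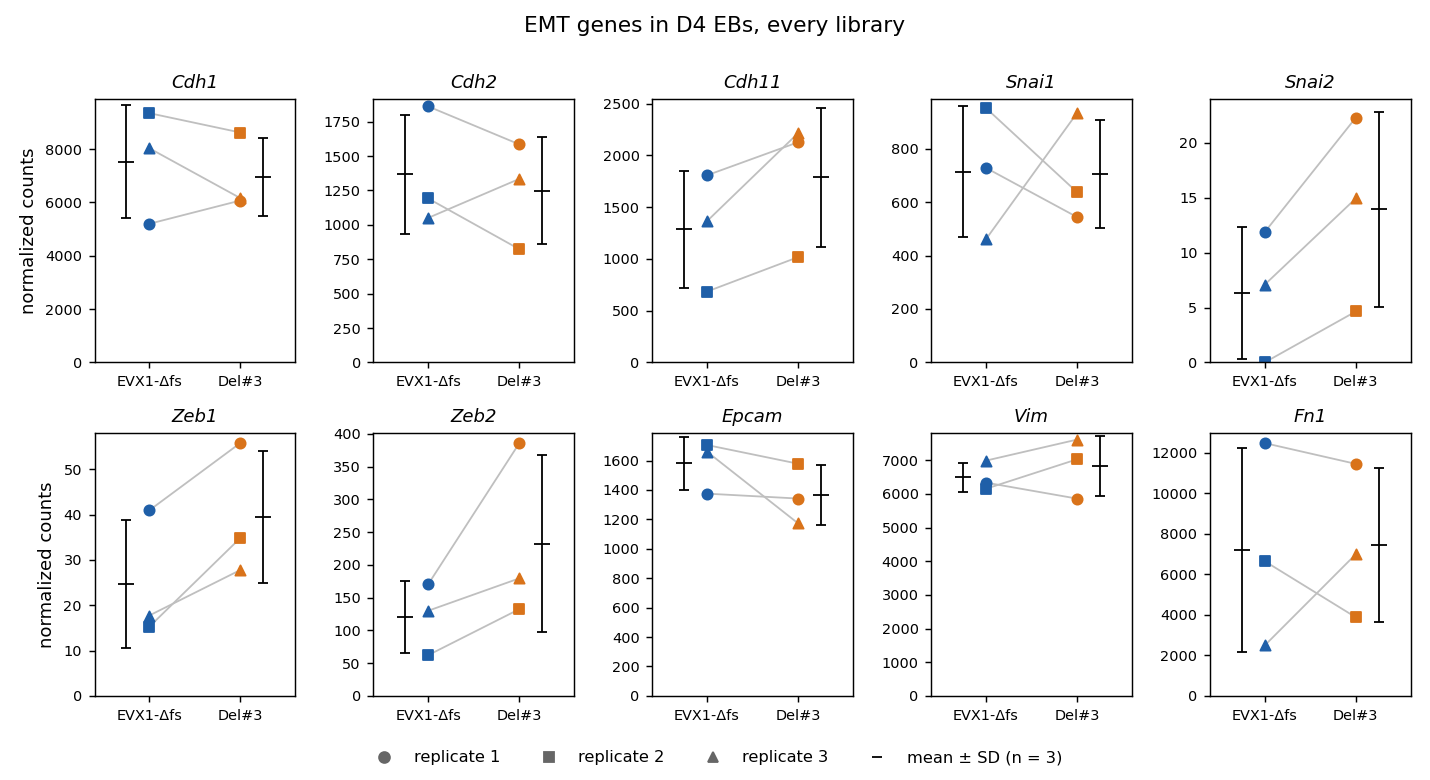
Normalized counts of the 10 EMT genes (vertical axes, linear, from 0) in the 3 EVX1-Δfs libraries and the 3 Del#3 libraries, with grey lines joining libraries of the same replicate number and bars giving the mean ± SD (n = 3). The lines overlap in every panel, and *Cdh11*, *Snai2*, *Zeb1* and *Zeb2* are higher in Del#3 in each of the 3 pairs.

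*Cdh1* (chr8:109127251-109194146, plus strand) encodes E-cadherin. In the order of replicates 1, 2 and 3, it had 5199, 9351 and 8035 normalized counts in EVX1-Δfs and 6074, 8624 and 6162 in Del#3, and this order is kept for the other genes. The lowest and the highest of the 6 libraries were both EVX1-Δfs libraries, and the Del#3 values lay between them. The means were 7529 ± 2122 in EVX1-Δfs and 6953 ± 1448 in Del#3 (SD, n = 3). The log2 fold change was -0.09 (SE 0.28), with a 95% interval from -0.71 to 0.53.

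*Epcam* (chr17:88035319-88050446, plus strand) encodes an epithelial cell adhesion molecule that is not a cadherin. It had 1375, 1705 and 1660 normalized counts in EVX1-Δfs and 1341, 1578 and 1173 in Del#3. In each replicate the Del#3 library was the lower of the pair, and the lines overlapped. Only *Epcam* of the 10 genes was lower in Del#3 in all 3 pairs, as were 1417 of the 12891 genes tested. Its log2 fold change was -0.22 (SE 0.23), with a 95% interval from -0.72 to 0.28.

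*Cdh2*, which encodes N-cadherin, had 1861, 1192 and 1050 normalized counts in EVX1-Δfs and 1585, 823 and 1334 in Del#3. The replicate 1 library was the highest of its line in both lines, and the lines overlapped. The log2 fold change was -0.14 (SE 0.31), with a 95% interval from -0.83 to 0.55. *Cdh2* lies at chr18:16747386-16967755 on the minus strand.

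*Cdh11* (chr8:105156895-105309011, minus strand) encodes cadherin-11, a cadherin of mesenchymal cells. It had 1808, 684 and 1365 normalized counts in EVX1-Δfs and 2127, 1017 and 2215 in Del#3. The replicate 2 library was the lowest of its line in both lines, and Del#3 was higher than EVX1-Δfs in each pair. The lines still overlapped, since Del#3 replicate 2 was below EVX1-Δfs replicates 1 and 3. The means were 1286 ± 566 in EVX1-Δfs and 1786 ± 668 in Del#3 (SD, n = 3), and the log2 fold change was 0.50 (SE 0.40), with a 95% interval from -0.38 to 1.38. Without EVX1-Δfs replicate 2, and with Del#3 replicate 2 kept, it was 0.10. Within the pairs the log2 differences were 0.23, 0.57 and 0.70.

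The exchange of E-cadherin for N-cadherin is often read as the ratio of the 2 genes, which does not depend on how libraries are scaled. The normalized count of *Cdh2* as a percentage of that of *Cdh1* was 35.8%, 12.7% and 13.1% in EVX1-Δfs, and 26.1%, 9.55% and 21.6% in Del#3. *Cdh1* had more reads than *Cdh2* in all 6 libraries, also per exon length, where *Cdh2* was 5.41% to 20.3% of *Cdh1*. On the log2 scale the ratio averaged -2.46 ± 0.85 in EVX1-Δfs and -2.51 ± 0.77 in Del#3 (SD, n = 3). The lines differed by -0.048, which was less than either SD (two-sided exact permutation test of the difference, p = 1). That difference has no stable sign, as it was 0.44 without EVX1-Δfs replicate 1, 0.39 without Del#3 replicate 2 and 0.16 without either replicate 1 library. Within the 3 pairs it was -0.46, -0.42 and 0.73. For *Cdh11* to *Cdh1* the ratio averaged -2.62 ± 1.12 in EVX1-Δfs and -2.02 ± 0.92 in Del#3. The difference of 0.59 was also less than either SD. A two-sided exact permutation test of it gave p = 0.5, where 0.1 is the smallest p that 3 libraries against 3 allow. This test does not use the pairing by day. Within the 3 pairs the ratio was higher in Del#3 by 0.010, 0.69 and 1.08, and 0.25 is the smallest two-sided p that an exact test of 3 pairs allows.

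**Figure D2:**
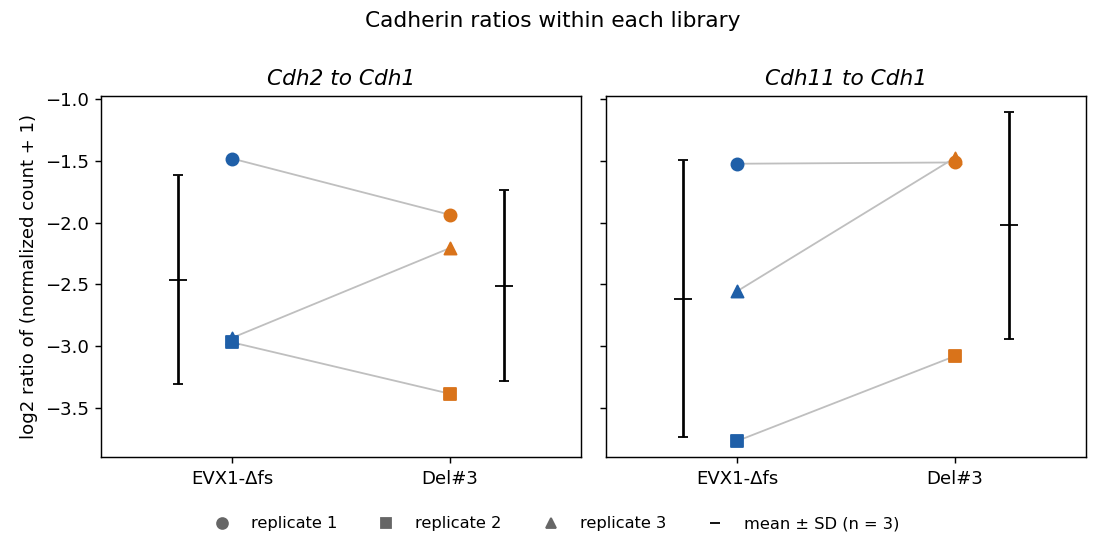
Log2 ratio of *Cdh2* to *Cdh1* and of *Cdh11* to *Cdh1* within each library (vertical axis), with grey lines joining libraries of the same replicate number and bars giving the mean ± SD (n = 3). All ratios are below 0, and the replicate 2 library is the lowest of its line in every case.

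Among the transcription factors, *Snai1* (chr2:167363695-167368314, plus strand), which encodes Snail, the *Cdh1* repressor of the primitive streak, was the most abundant. It had 729, 953 and 461 normalized counts in EVX1-Δfs and 544, 637 and 933 in Del#3. The 2 lines covered nearly the same range, and Del#3 was the higher only in replicate 3. The means were 714 ± 246 and 705 ± 203 (SD, n = 3), and the log2 fold change was 0.0059 (SE 0.32), with a 95% interval from -0.70 to 0.71. Its sign depended on the method, being -0.019 by DESeq2.

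*Snai2* (chr16:14705945-14709488, plus strand), which encodes Slug, was close to the lower limit of detection. Its reads numbered 18, 0 and 6 in EVX1-Δfs and 28, 4 and 14 in Del#3. In normalized counts these are 11.9, 0 and 7.09 in EVX1-Δfs and 22.3, 4.64 and 15.0 in Del#3. The count of 0 in EVX1-Δfs replicate 2 allows up to 3.52 normalized counts, the value of 3 reads there, which covers counting error only. Del#3 was the higher in each pair, and the lines overlapped. The log2 fold change was 1.44 (SE 0.94), with a 95% interval from -0.64 to 3.52. Within the pairs the log2 differences were 0.86, 2.50 and 0.98, the widest in the pair with the library at 0. Without EVX1-Δfs replicate 2, and with Del#3 replicate 2 kept, the fold change was 0.33. It also moved with the constant added before the logarithm, from 2.51 with 0.1 to 0.79 with 5. The count models gave 1.11 (DESeq2) and 1.09 (edgeR).

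*Zeb1* and *Zeb2* encode zinc finger and homeobox repressors that act on *Cdh1* alongside the SNAI factors. *Zeb1* had 40.9, 15.2 and 17.7 normalized counts in EVX1-Δfs and 55.8, 34.8 and 27.8 in Del#3. The highest value of either line was in replicate 1, Del#3 was the higher in each pair, and EVX1-Δfs replicate 1 lay above 2 of the Del#3 libraries. The log2 fold change was 0.73 (SE 0.48), with a 95% interval from -0.33 to 1.80. It was 1.16 without EVX1-Δfs replicate 1, 0.47 without EVX1-Δfs replicate 2 and 0.46 without Del#3 replicate 1. *Zeb1* lies at chr18:5591858-5775465 on the plus strand.

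*Zeb2* (chr2:44839154-44972915, minus strand) had 170, 62.1 and 130 normalized counts in EVX1-Δfs and 386, 132 and 179 in Del#3. Del#3 was the higher in each pair. Del#3 replicate 1 stood well above the other 5 libraries, and EVX1-Δfs replicate 1 lay above Del#3 replicate 2. The means were 121 ± 54.7 and 232 ± 135 (SD, n = 3), and the log2 fold change was 0.91 (SE 0.47), with a 95% interval from -0.13 to 1.94 and an unadjusted limma p of 0.0799. By DESeq2 the unadjusted p was 0.0425 and the adjusted p 1.00. Without Del#3 replicate 1 the log2 fold change was 0.47, and without both replicate 1 libraries it was 0.77. In the annotation, 458 exonic bases of *Zeb2* are shared with the lincRNA *Gm13476* on the opposite strand, whose reads may not be separate from its own.

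*Vim* (chr2:13495554-13504453, plus strand) encodes vimentin, an intermediate filament protein of mesenchymal cells. It had 6337, 6153 and 6990 normalized counts in EVX1-Δfs and 5862, 7029 and 7615 in Del#3. It varied least of the 10 genes within EVX1-Δfs, with a coefficient of variation of 6.77%. Del#3 differed from EVX1-Δfs by 0.07 on the log2 scale (SE 0.22), with a 95% interval from -0.42 to 0.55.

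*Fn1* (chr1:71632094-71699774, minus strand) encodes fibronectin, an extracellular matrix protein. It had 12464, 6639 and 2488 normalized counts in EVX1-Δfs and 11439, 3873 and 6987 in Del#3. The lowest and the highest EVX1-Δfs library differed 5.01-fold. In replicates 2 and 3 the lines differed in opposite directions, with log2 differences of -0.78 and 1.49. The annotation places 292 exonic bases of *Fn1* opposite *Apol7d*. Over all libraries the log2 fold change was 0.20 (SE 0.54), with a 95% interval from -1.01 to 1.40.

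**Figure D3:**
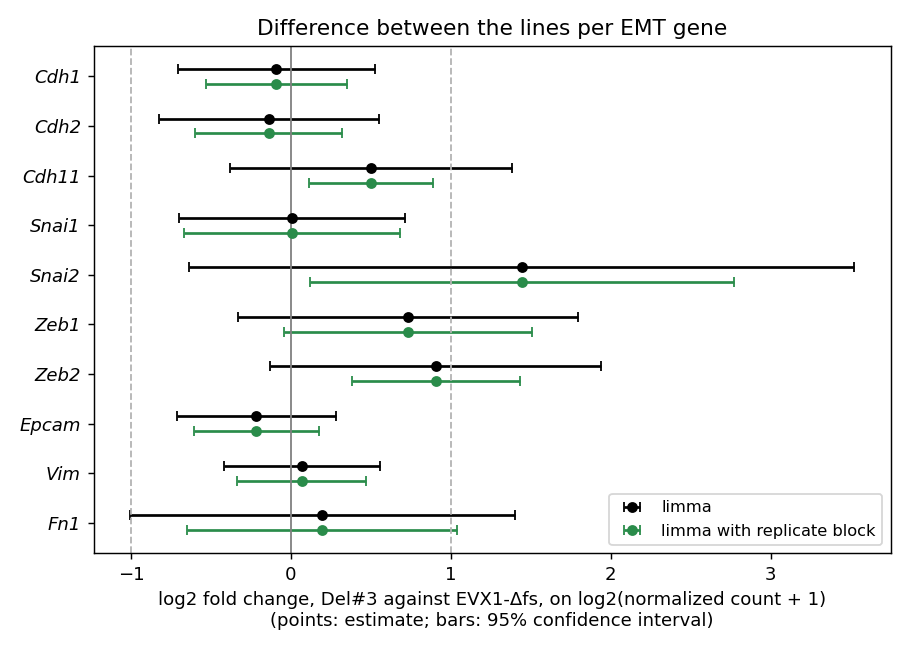
Log2 fold change of each EMT gene, Del#3 against EVX1-Δfs (horizontal axis), with 95% confidence intervals from limma without the replicate block (black) and with it (green), and dashed lines at a 2-fold change in either direction. All 10 intervals of the fit without the block include 0, and those of *Cdh11*, *Snai2* and *Zeb2* lie above 0 with the block.

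The intervals show what size of difference the data could hold. For 5 genes, *Cdh1*, *Cdh2*, *Snai1*, *Epcam* and *Vim*, the 95% interval stayed within a 2-fold change in either direction, as it did for 61.1% of all genes tested. For *Cdh11*, *Zeb1*, *Zeb2*, *Fn1* and *Snai2* it reached beyond 2-fold, so that a 2-fold difference in these genes lies within what 3 libraries per line allow. At the upper end the interval allowed a 2.61-fold higher value in Del#3 for *Cdh11*, 2.64-fold for *Fn1*, 3.48-fold for *Zeb1*, 3.84-fold for *Zeb2* and 11.5-fold for *Snai2*. These limits are from the fit without the pairing by day. With the replicate block the upper limits were 1.85-fold for *Cdh11*, 2.06-fold for *Fn1*, 2.84-fold for *Zeb1*, 2.70-fold for *Zeb2* and 6.83-fold for *Snai2*, so that *Cdh11* then stayed within a 2-fold change.

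Each replicate number was taken to mark 1 day on which both lines were set up. The lines were therefore also compared by limma with the replicate number as a block. Again 0 of the 10 genes had an adjusted p under 0.05, against 0.0233% of all genes tested. At an unadjusted p under 0.05 there were 3, *Cdh11*, *Snai2* and *Zeb2*, against 4.62% of all genes. For *Zeb2* the unadjusted p in that fit was 0.00393 and the adjusted p 0.693, for *Cdh11* 0.0176 and 0.890, and for *Snai2* 0.0363 and 0.992. *Zeb1* had an unadjusted limma p of 0.0607 with the block. These are the 4 genes that were higher in Del#3 in all 3 pairs, a pattern that 12.1% of all genes tested had. With *Epcam*, 5 of the 10 genes had differences of 1 sign in all 3 pairs, against 23.1% of all genes tested. With DESeq2 and the block, *Zeb2* had an adjusted p of 0.292, and *Snai2* and *Zeb1* were given none because of their low counts. The unadjusted p by DESeq2 with the block was 0.0193 for *Cdh11*, 0.0027 for *Zeb2* and 0.132 for *Snai2*. The share of all genes with an unadjusted p under 0.05 in that fit was not computed.

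Transcript length moved with the difference between the lines. The median log2 fold change over all genes was -0.11 in the fifth of genes with the shortest exon length, which holds *Snai1*, *Snai2* and *Epcam*, and 0.12 in the fifth with the longest, which holds *Cdh2*, *Zeb1*, *Zeb2* and *Fn1*. After a correction of each library for exon length, in limma with the block, the log2 fold change of *Zeb2* was 0.59 (SE 0.25), that of *Zeb1* 0.52 (SE 0.35), that of *Cdh11* 0.45 (SE 0.15) and that of *Snai2* 1.49 (SE 0.56). In the same fit *Cdh2* moved from -0.14 to -0.31 (SE 0.17) and *Fn1* from 0.20 to 0.018 (SE 0.34). The unadjusted limma p-values were 0.0459 for *Zeb2*, 0.175 for *Zeb1*, 0.0174 for *Cdh11*, 0.0300 for *Snai2*, 0.0999 for *Cdh2* and 0.961 for *Fn1*. None had an adjusted p under 0.05.

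The variation between replicate numbers was then set beside that between lines. Of the sum of squares of each gene over the 6 libraries, the replicate number (2 degrees of freedom) held a median of 66.2% over the 10 genes and the line (1 degree of freedom) 11.9%, against 64.4% and 6.70% over all genes tested. The share of the replicate number was near that of all genes, and it was only 12.1% for *Snai1*. In limma's F-test of the replicate number, run after the data were seen and with the line in the model, 1 of the 10 genes had an adjusted p under 0.05, *Cdh11* (adjusted p = 0.0329), against 4.24% of all genes tested. *Zeb2* came next with an adjusted p of 0.0502, then *Snai2* with 0.0849 and *Fn1* with 0.123. *Cdh11* was lower in replicate 2 than in replicate 1 by 1.23 on the log2 scale over both lines. This call did not hold in every setting. Without EVX1-Δfs replicate 1 its adjusted p was 0.117, and with correction for exon length it was 0.0587. The count of EMT genes past the threshold moved together with the share of all genes. It was 0 of the 10 without EVX1-Δfs replicate 1 (1.5% of all genes), 4 without EVX1-Δfs replicate 2 (16.9%) and 5 without EVX1-Δfs replicate 3 (18.3%). It was 1 without Del#3 replicate 1 (1.62%), 3 without Del#3 replicate 2 (11.1%) and 5 without Del#3 replicate 3 (24.2%). Without both replicate 1 libraries it was 0, as over all genes. At an unadjusted p under 0.05 there were 5 of the 10 genes, against 27.7% of all genes.

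**Figure D4:**
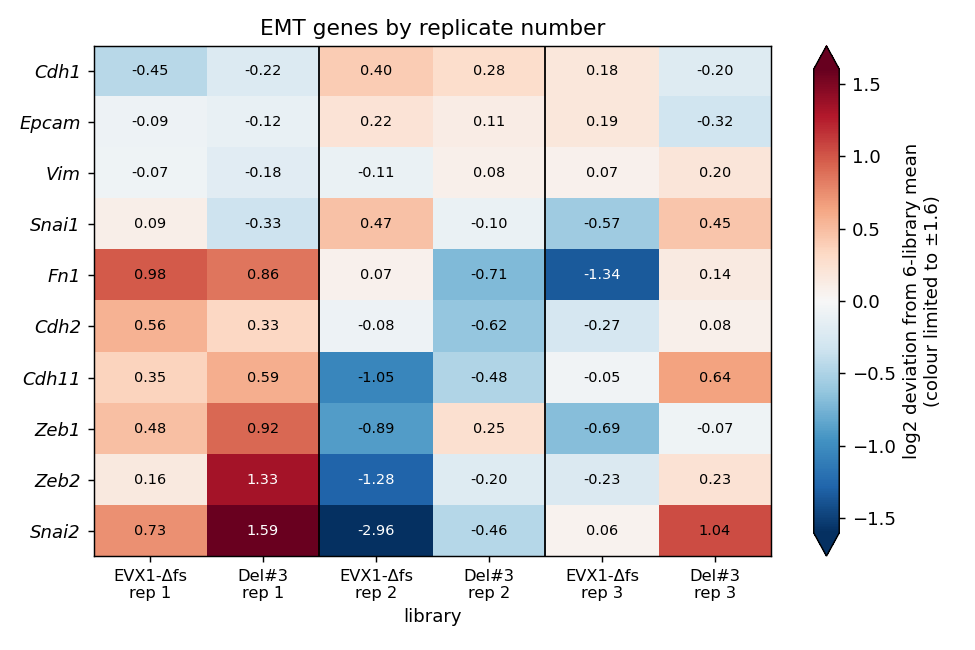
Deviation of each EMT gene in each library from its mean over the 6 libraries, on log2(normalized count + 1), with libraries ordered by replicate number (horizontal axis) and the value printed in each cell. In replicate 2 of both lines *Cdh1* and *Epcam* are above their means and *Cdh2*, *Cdh11*, *Zeb2* and *Snai2* below, while *Cdh2*, *Cdh11*, *Zeb1*, *Zeb2*, *Snai2* and *Fn1* are above their means in replicate 1.

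Across the 6 libraries, *Cdh1* and *Epcam* tended to be low where *Cdh2*, *Cdh11* and *Snai2* were high. *Cdh1* correlated with *Epcam* at r = 0.81, with *Cdh2* at -0.84, with *Cdh11* at -0.88 and with *Snai2* at -0.81. *Snai2* correlated with *Cdh11* at 0.96 and with *Zeb2* at 0.92, and *Cdh2* correlated with *Fn1* at 0.86. Not all of the genes followed this. *Snai1* had r = 0.00 against *Cdh1* and -0.41 against *Snai2*. *Vim*, a mesenchymal gene, had 0.10 against *Cdh1*, 0.14 against *Snai2*, -0.48 against *Cdh2* and -0.56 against *Fn1*. These coefficients describe 6 libraries that share 3 days and 2 lines, and *Snai2* has few reads. With each line centred on its own mean, *Cdh1* and *Cdh2* stood at -0.90, *Cdh1* and *Cdh11* at -0.91, and *Snai2* and *Cdh11* at 0.96. Over all genes tested, the 3 most like *Cdh1* across the 6 libraries were *Plcd1*, *Pex16* and *Atmin* (each r = 0.99), and those most like *Snai1* were *Tacc3* (r = 0.99), *Rtn4rl2* (r = 0.99) and *Cyr61* (r = 0.98).

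Summed markers of other cell types also varied between libraries. The 3 fibroblast markers in the table summed to 543, 632 and 423 normalized counts in EVX1-Δfs and to 668, 531 and 702 in Del#3, with no order of the days common to both lines. The sum of 5 blood and endothelium markers was lowest in replicate 2 of both lines, at 1261 in EVX1-Δfs and 1521 in Del#3, although *Tal1* was highest there in Del#3. The sum of 5 epiblast markers was highest in replicate 2, at 11033 in EVX1-Δfs and 11376 in Del#3, but *Pou5f1* in EVX1-Δfs and *Otx2* in Del#3 were highest in replicate 1. Sums of 6 primitive streak and mesoderm markers were lowest in replicate 1, at 7624 in EVX1-Δfs and 6049 in Del#3, whereas *Mixl1* and *Tbx6* in EVX1-Δfs were highest there. Sums of 4 definitive endoderm markers were also lowest in replicate 1, at 3243 and 2627, but *Sox17* in EVX1-Δfs was lowest in replicate 3. The 6 visceral or primitive endoderm markers summed highest in replicate 1, at 673 in EVX1-Δfs and 773 in Del#3, against 597 to 626 in the other 4 libraries. However, *Hnf4a* and *Apoa1* in EVX1-Δfs were lowest in replicate 1, and *Gata6* in Del#3 was highest in replicate 3. Apart from the fibroblast list, each of these sums had its highest or its lowest library in the same replicate number of both lines. The rest of the order could differ. The epiblast sum was lowest in replicate 1 in EVX1-Δfs, at 8887, and in replicate 3 in Del#3, at 7013. The members named with each of these sums did not share its pattern, and the sums were not tested against the day. The part of cell composition in the values of the EMT genes was not tested.

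Per exon length, in RPKM over the 6 libraries, *Vim* was the highest of the 10 genes with a mean of 269 (range 249 to 311) and *Cdh1* the next with 148 (110 to 193), and these ranges did not overlap. *Fn1* followed at 84.6 (26.4 to 144), *Epcam* at 67.8 (54.9 to 79.0), *Snai1* at 41.4 (25.2 to 55.6), *Cdh11* at 34.8 (15.3 to 51.8) and *Cdh2* at 15.5 (9.03 to 22.3). From *Cdh1* down to *Cdh2*, neighbours in this order overlapped in their ranges. *Zeb2* at 1.11 (0.382 to 2.57), *Snai2* at 0.484 (0 to 1.13) and *Zeb1* at 0.316 (0.148 to 0.589) were all below the lowest *Cdh2* library and overlapped with each other. Per length, *Snai1* was thus far above the other 3 repressors, in every library.

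Other genes of cell adhesion and EMT were taken from 7 lists. Of 83 genes listed, 76 were tested, and 0 had an adjusted p under 0.05 by limma, with or without the block. At an unadjusted p under 0.05 there were also 0 by limma and by edgeR. With the block there were 3 of the 76, against 4.62% of all genes tested, which is near the background. They were *Tjp1* (tight junction scaffold), *Acta2* (smooth muscle actin) and *Tgfbr1* (a TGF-β receptor), named here after their values were seen. Fold changes of the 76 genes ran from -0.69 for *Ctnna2* to 0.73 for *Acta2*, with a median of 0.024, 40 above 0 and 36 below.

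By list, the median log2 fold change was 0.14 over 8 other classical cadherins, -0.08 over 5 catenins and 0.17 over 8 other EMT transcription factors. It was -0.01 over 6 epithelial regulators and -0.01 over 25 epithelial junction and keratin genes. It was 0.03 over 11 mesenchymal genes and 0.05 over 13 gastrulation EMT regulators. The most abundant of the catenins was *Ctnnb1*, which encodes β-catenin, the partner of the cadherin tail, at 9717 to 19005 normalized counts. Among junction and keratin genes it was *Krt8*, a keratin of simple epithelia, at 7844 to 12483, and among other classical cadherins it was *Cdh3*, which encodes P-cadherin, at 243 to 508. Among other EMT transcription factors it was *Tcf3* (1902 to 2701), and among epithelial regulators *Esrp1* (764 to 1018). Among mesenchymal genes it was *Itgb1* (3365 to 6496), and among gastrulation EMT regulators *Fgfr1* (2878 to 4318). In the F-test of the replicate number, 6 of the 76 genes had an adjusted p under 0.05, against 4.24% of all genes tested. With the length correction, or without both replicate 1 libraries, this test called 0 of all genes.

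**Figure D5:**
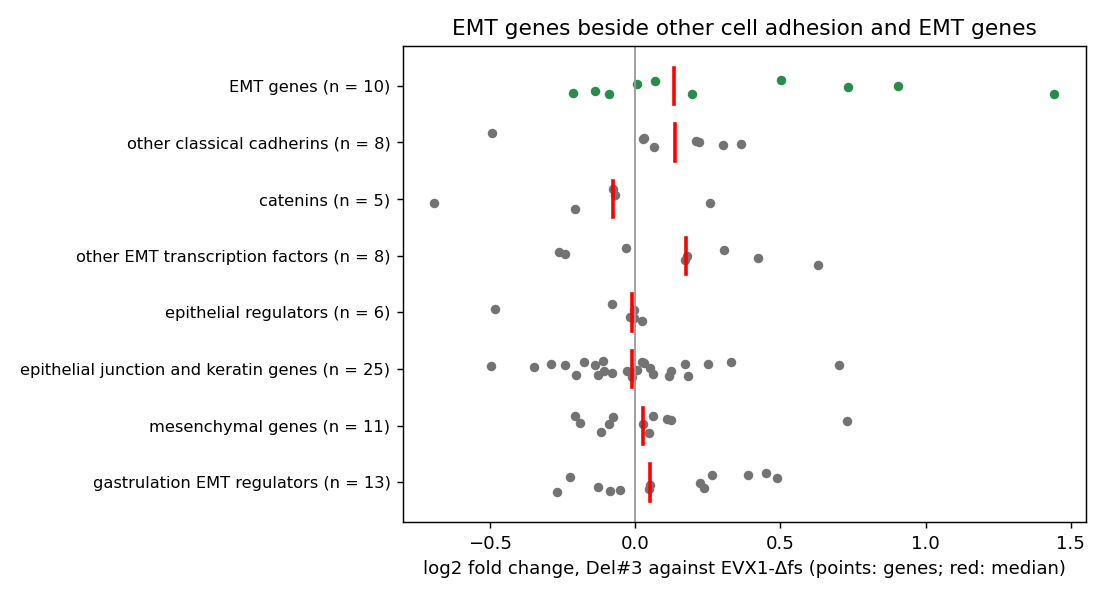
Log2 fold change, Del#3 against EVX1-Δfs (horizontal axis), of the 10 EMT genes and of the tested genes of 7 related lists (rows), 1 point per gene with small vertical shifts for legibility and a red bar at each median. The list medians lie between -0.08 and 0.17, and that of the 10 EMT genes is 0.13.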

How the data were processed

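mRNA was sequenced on the Ion Proton from D4 EBs of the EVX1-Δfs and Del#3 lines, with 3 libraries each. The authors mapped reads to mm9 with TopHat2 and TMAP, counted them on genes with HTSeq and normalized them with DESeq2. Tool versions are not given in the sources used here. The deposited signal values are counts divided by a size factor per library: 100% of values were whole multiples of 1 step (to within 0.01 steps), the lowest value above 0, which gave back the reads.

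Lines were compared with limma (version 3.58.1, R 4.3.3, intensity trend) on log2(normalized count + 1), without covariates, over the 12891 genes kept by edgeR's filterByExpr (edgeR version 4.0.16, minimum count 10) applied to those reads. p-values were adjusted by Benjamini-Hochberg, with a threshold of 0.05. RPKM used the recovered reads and the exon length in the GENCODE annotation of NCBIM37. Promoter sequences are from RefSeq (GRCm38.p6) and were placed on NCBIM37 by exact match. The scripts were tested on simulated data.

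The series' design text states that each replicate was set up on a different day with both lines side by side. Libraries with the same replicate number were therefore taken as pairs, which the sample labels do not state. Same-numbered libraries deviated from their line means with correlations across genes of 0.74, 0.32 and -0.05. Alternatives were DESeq2 (version 1.42.0) and edgeR on the reads, other pseudocounts, filters and scalings, the replicate block, and leaving out each library. The F-test of the replicate number, the exon-length correction (loess, span 0.3, on the 12235 genes with a length) and leaving out both replicate 1 libraries were added after the data were seen. All 10 genes were named. In other lists the rule named the most abundant gene and any with an unadjusted p under 0.05 in limma without the block. For *Cdh1* and *Snai1* it named the 3 most correlated genes. Genes of the other lists that were named from the fit with the block, or for the lowest or highest fold change, fall outside this rule. The 10 genes and all lists were chosen with earlier results of these data known.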

Additional observations from a re-analysis of the deposited data

How the results depend on the processing

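For the 10 EMT genes, 138 of the 149 log2 fold changes that the alternatives could move kept their direction (29 others, under other filters or the block in limma, equal the main value by construction), with 0 genes called in each alternative that was run, and 5 genes, *Cdh11*, *Snai2*, *Zeb1*, *Zeb2* and *Epcam*, kept it in every one. The other 11 changed sign. *Snai1* was -0.019 by DESeq2, -0.0054 by edgeR, -0.0045 by DESeq2 with the replicate block, -0.28 without EVX1-Δfs replicate 3 and -0.22 without Del#3 replicate 3. *Fn1* was -0.43 without EVX1-Δfs replicate 3 and -0.18 without Del#3 replicate 1, *Cdh2* 0.10 without EVX1-Δfs replicate 1 and 0.13 without Del#3 replicate 2, *Cdh1* 0.086 without EVX1-Δfs replicate 2, and *Vim* -0.014 without Del#3 replicate 3. With single libraries left out the range was -0.34 to 0.086 for *Cdh1*, -0.34 to 0.13 for *Cdh2*, -0.28 to 0.24 for *Snai1*, -0.014 to 0.17 for *Vim* and -0.43 to 0.73 for *Fn1*, and with no change of sign 0.10 to 0.87 for *Cdh11*, 0.33 to 2.17 for *Snai2*, 0.46 to 1.16 for *Zeb1*, 0.47 to 1.23 for *Zeb2* and -0.33 to -0.11 for *Epcam*. The log2 ratio of *Cdh2* to *Cdh1* differed between the lines by -0.33 to 0.44 with single libraries left out and by 0.16 without both replicate 1 libraries. In the pairing by replicate number, this ratio differed by -0.048 (exact permutation test within pairs, p = 1, where 0.25 is the smallest possible). Over all genes, limma called 2 without and 3 with the replicate block, DESeq2 called 3 without and 18 with it, and the block changed no call among the EMT genes. *Snai2* could not be tested with at least 10 reads required in every library or without both replicate 1 libraries. Between replicate numbers, the count of EMT genes moved from 1 to 2 with a pseudocount of 5 or by DESeq2's likelihood ratio test, to 0 with the length correction or without both replicate 1 libraries, and to 0 to 5 with single libraries left out. Over all genes it moved from 546 to 641 with a pseudocount of 5 and to 1308 by DESeq2's likelihood ratio test. It moved to 0 with the length correction and to 0 without both replicate 1 libraries, and to 197 to 3175 with single libraries left out. The cause was not tested. *Snai2* had at most 28 reads in a library.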
